A study of Homo sapiens with 18 samples.

Results

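ATF4 and 9 genes of the integrated stress response were followed through 3 human lung cell lines before and after irradiation. The members were ATF4, ATF3, DDIT3, TRIB3, PPP1R15A, DDIT4, CHAC1, ASNS, PSAT1 and PHGDH, found by symbol through their Entrez identifiers, 10 of the 18475 genes in the deposited table. They were chosen by their values in these data, namely the lower level of TRIB3 in irradiated A549 cells and the higher level of ATF3 in irradiated BEAS-2B cells. The members' differences in those lines are therefore given as a description with no test. RNA-seq was performed on BEAS-2B (a lung epithelial line immortalised with SV40 sequences), H446 (small cell lung cancer) and A549 (lung adenocarcinoma) cells, all labelled wild type. Each line had 3 control libraries and 3 libraries of cells harvested 24 h after 10 Gy of X-rays. The labels give no separate harvest time for the controls and do not say whether the replicates were separate cultures, so the errors and p-values measure only the spread between these libraries, which may be technical. Values are in FPKM, reads scaled to the length of the transcript and to the mapped reads of the library, and their total per library lay between 461255 and 529936. How many reads stand behind a value is unknown.

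In the integrated stress response, kinases that sense amino acid shortage, unfolded protein, heme shortage or double-stranded RNA phosphorylate the translation factor eIF2. General translation then drops while the mRNA of the transcription factor ATF4 is translated more, so that ATF4 protein can rise without a change in its mRNA. ATF4 turns on amino acid synthesis, transport and tRNA charging, together with genes that end or redirect the response, and it binds DNA with C/EBP partners at a composite element. These libraries hold mRNA and give no view of eIF2 phosphorylation or of ATF4 protein.

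Some libraries stood apart from their labels before any member was considered. CDKN1A, the cell cycle inhibitor induced by p53, was at 79.93, 86.36 and 86.08 FPKM in the BEAS-2B controls and at 309.73, 102.24 and 487.79 after irradiation, so that replicate 2 of the irradiated group lay near the controls. MDM2, the ubiquitin ligase of p53, showed the same order, with 47.49, 16.17 and 87.83 against 17.46 to 18.86 in the controls. The members' BEAS-2B differences are given below with and without this library. CDKN1A was between 293.77 and 317.9 FPKM in irradiated A549 cells against 100.68 to 106.25 in their controls. In H446 cells it was between 63.57 and 72.44 after irradiation and between 71.66 and 75.72 before, so this check does not tell the H446 groups apart. Instead, the H446 groups differed along the GC content of the transcripts. The Spearman correlation across genes between GC content and a library's deviation from the mean of its line was 0.347 to 0.459 in the H446 controls and -0.496 to -0.106 after irradiation. The members' H446 differences are also given with this trend removed. The trend ran from -0.629 to 0.705 in BEAS-2B, with irradiated replicate 2 the highest, and from -0.134 to 0.166 in A549 libraries. The epithelial keratins KRT8 and KRT18 were at 341.89 FPKM or more in all 18 libraries. EPCAM did not exceed 3.06 FPKM in any library, CDH1 was at 6.74 to 11.34 in A549 and at or below 0.74 elsewhere, and several markers of the labelled cell types were near 0. SFTPB, SFTPC and NKX2-1 were at or below 0.22 FPKM in A549, KRT5, KRT14 and TP63 at or below 0.18 in BEAS-2B, and the neuroendocrine genes SYP, CHGA and NCAM1 at or below 0.29 in H446 cells, whose label these 3 genes alone do not settle. SYP (1.65 to 2.13 FPKM) and CHGA (0.81 to 1.19) were highest in A549, and NCAM1 (3.68 to 5.48) was highest in BEAS-2B. Among markers of other cell types, the leukocyte gene PTPRC stayed at or below 0.09 FPKM everywhere and COL1A1 lay between 4.08 and 10.09, while PECAM1 (3.4 to 4.03) and DCN (3.06 to 4.36) were present in H446 and at or below 0.45 in the other lines.

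The composite element through which ATF4 and C/EBP factors act was searched for as TGATGNAA on both strands, in windows of 300 bases around RefSeq start sites (250 before, 50 after, GRCh38.p14). All 10 members had at least 1 window, and 3 of them (30%) held the motif, against 4.46% of 27305 genes with a window and 3.37% of the 14417 genes of the table that had one. The shares were 63.6% for tRNA synthetases and exportin (7 of 11 genes with a window), 62.5% for amino acid transporters (5 of 8), 40% for bZIP partners (2 of 5), 25% for amino acid and one-carbon enzymes (1 of 4), 14.3% for further ATF4 targets (1 of 7), 8.33% for eIF2 genes (1 of 12), 8.33% for the ATF6 and XBP1 branch (1 of 12) and 0% for p53 targets (0 of 12). Stretches of 30 bases around the motif are printed for the 3 members, and for a transporter, a bZIP partner and a tRNA synthetase whose levels are given below. Letters run 5′ to 3′ along the strand of the gene, and capitals mark the motif, in which TGATG begins the forward form and CATCA ends the reverse one.
ASNS, chr7:97872458-97872487, minus strand: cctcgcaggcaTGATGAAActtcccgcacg
CHAC1, chr15:40953251-40953280, plus strand: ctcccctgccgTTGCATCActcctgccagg
ATF3, chr1:212565205-212565234, plus strand: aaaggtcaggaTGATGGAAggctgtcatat
SLC1A5, chr19:46784893-46784922, minus strand: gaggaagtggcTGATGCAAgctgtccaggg
CEBPG, chr19:33374060-33374089, plus strand: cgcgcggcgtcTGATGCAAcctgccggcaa
AARS1, chr16:70289675-70289704, minus strand: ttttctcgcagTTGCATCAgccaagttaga
The first base of the motif lay 68 bases before the start site in ASNS, 209 in CHAC1, 191 in ATF3, 97 in SLC1A5, 42 in CEBPG and 187 in AARS1, counted from the RefSeq start of that window. GENCODE 29 has the stretches of ASNS, CHAC1 and SLC1A5 overlapping an untranslated region of the same gene, and that of CEBPG in an intron of the gene. It has the stretch of ATF3 outside the gene and that of AARS1 outside the gene and inside DDX19B on the opposite strand. ATF3, ASNS, SLC1A5 and CEBPG each had at least 1 further start site whose window did not hold the motif. The letters were in none of the windows of ATF4, DDIT3, TRIB3, PPP1R15A, DDIT4, PSAT1 and PHGDH, which says nothing about sites elsewhere or about other spellings.

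Irradiated A549 cells had less mRNA of all 10 members than their controls, with no overlap between the groups for any of them. The differences on the log2(FPKM + 1) scale ranged from -2.01 for TRIB3 to -0.63 for ATF4, with a median of -1.23 over the members and of -0.00396 over the 11993 genes tested. TRIB3 was the gene with rank 3 from the lowest, ASNS had rank 8, DDIT3 rank 9, CHAC1 rank 12 and PPP1R15A rank 15, and the other members lay between rank 42 (ATF3) and rank 220 (ATF4). Since this contrast chose the members, these ranks describe the choice. In the same contrast, 29.5% of all genes tested had all irradiated libraries below all controls and 29% above. In bulk RNA, fewer expressing cells and less mRNA per cell cannot be told apart.

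Among the transcription factors, ATF4 (Entrez 468, chr22:39519695-39522685, plus strand, GRCh38) stood at 342.8, 356.46 and 328.52 FPKM in the A549 controls and at 219.73, 224.15 and 220.26 after irradiation. This was 1.55-fold lower, with a log2 difference of -0.63 ± 0.038 (SE from limma, n = 3 and 3). ATF4 had the smallest difference of the 10 members in A549. ATF3, a stress-induced factor that can repress genes of the response (Entrez 467, chr1:212565334-212620777, plus strand), was at 27.06, 27.0 and 28.69 FPKM in the controls and at 13.33, 12.82 and 11.96 in the irradiated libraries. Its level was 2.17-fold lower (-1.06 ± 0.051). DDIT3 encodes CHOP, the factor tied to cell death under lasting stress (Entrez 1649, chr12:57516588-57521737, minus strand). It was at 83.59, 88.19 and 84.35 FPKM without and at 25.54, 26.69 and 28.7 with irradiation, which was 3.16-fold lower (-1.63 ± 0.0466). The 3 irradiated libraries thus lay within a narrow range for each factor. DDIT3 overlaps MARS1 and MBD6 on the opposite strand and holds the protein-coding gene AC022506.1 and the microRNA gene MIR616 on its own strand. Reads of the shared bases cannot be assigned on the same strand, nor on the opposite one where strand was not recorded.

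The feedback and effector genes included the widest difference. TRIB3 encodes a pseudokinase that binds ATF4 and CHOP and curbs the response (Entrez 57761, chr20:362835-397559, plus strand). Its levels in the A549 controls were 91.68, 89.96 and 90.42 FPKM, and those after irradiation 22.94, 21.94 and 20.5, a 4.16-fold lower mean (-2.01 ± 0.0443). PPP1R15A encodes GADD34, which brings a phosphatase to eIF2 (Entrez 23645, chr19:48872392-48876057, plus strand), and it was at 95.8, 96.3 and 90.14 FPKM before and at 34.67, 34.05 and 35.85 after, 2.7-fold lower (-1.41 ± 0.0404). Both genes close the loop from ATF4 back to eIF2 or to ATF4 itself, and both were among the 15 lowest ranks. CHAC1, which degrades glutathione (Entrez 79094, chr15:40952962-40956519, plus strand), was at 27.38, 28.15 and 25.89 FPKM in the controls and at 9.68, 9.09 and 8.36 after irradiation, 3-fold lower (-1.49 ± 0.0575). DDIT4 encodes REDD1, an inhibitor of mTORC1 (Entrez 54541, chr10:72273920-72276036, plus strand). It was at 286.92, 298.73 and 277.28 FPKM against 180.95, 167.62 and 178.54, 1.64-fold lower (-0.71 ± 0.0416), a smaller difference than those of the other effectors. DDIT4 overlaps the antisense gene DDIT4-AS1.

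The amino acid synthesis enzymes differed by 2-fold or more. ASNS makes asparagine (Entrez 440, chr7:97852118-97872542, minus strand) and overlaps the lncRNA gene AC079781.5 on its own strand and the pseudogene AC005326.1 on the other. It was at 134.78, 142.98 and 134.72 FPKM in the A549 controls and at 43.95, 42.63 and 43.19 after irradiation, 3.18-fold lower (-1.65 ± 0.0378). PHGDH and PSAT1 catalyse consecutive steps of serine synthesis. PHGDH (Entrez 26227, chr1:119648411-119744226, plus strand) was at 61.42, 63.48 and 63.87 FPKM before and at 31.63, 30.88 and 31.74 after, 2-fold lower (-0.98 ± 0.0375). PSAT1 (Entrez 29968, chr9:78297143-78330093, plus strand) was at 164.02, 171.08 and 172.77 FPKM before and at 84.54, 86.64 and 76.58 after, 2.05-fold lower (-1.03 ± 0.0469). The serine pair thus had nearly the same ratio in A549, while ASNS had a wider one. Over the libraries left out in turn, the A549 median of the members stayed between -1.25 and -1.22.

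**Figure D1:**
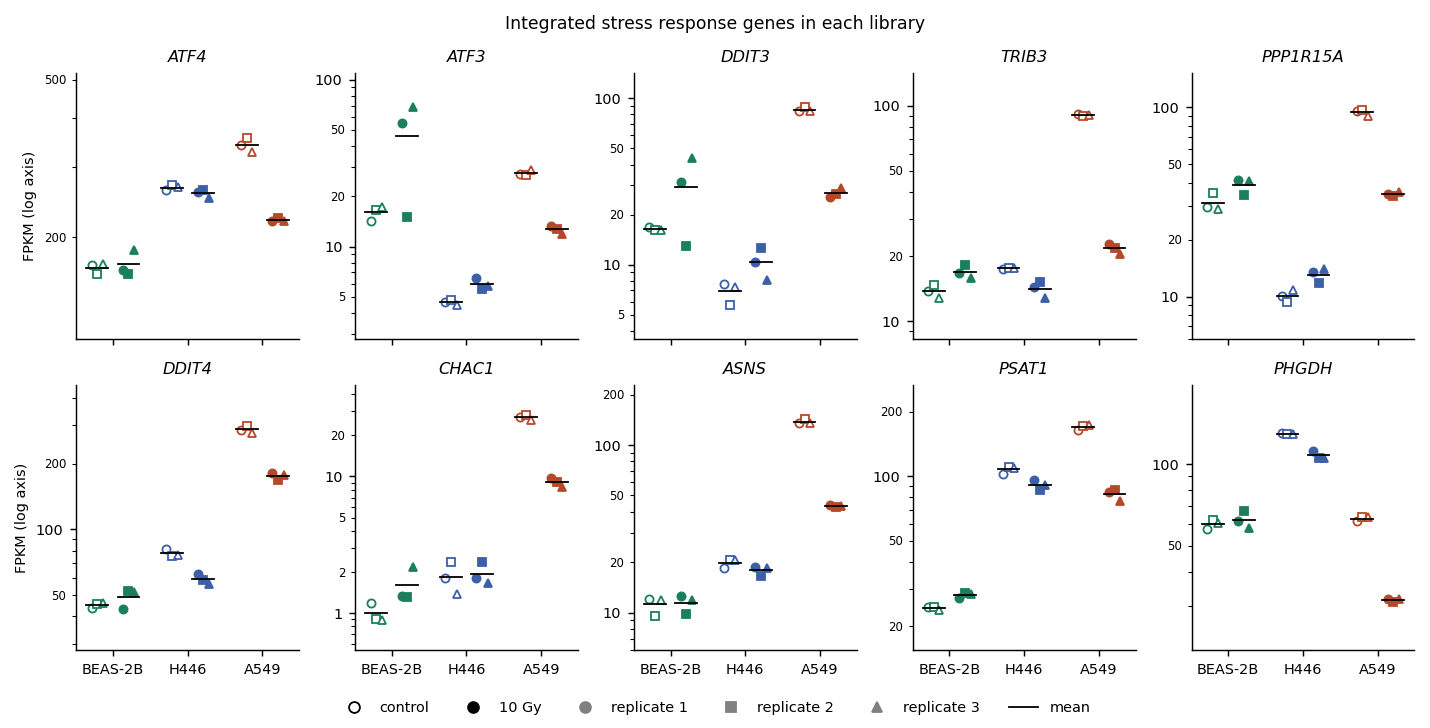
FPKM on a log axis of each of the 10 genes in the 18 libraries, with open symbols for controls, filled symbols for 10 Gy, a symbol shape per replicate number and a line at the group mean. In A549 all filled symbols sit below the open ones in every panel, and in BEAS-2B the squares of ATF3 (15.04) and DDIT3 (12.96) sit apart from the other irradiated libraries.

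The wider pathway in A549 was followed in 60 further genes of the response. They were sorted into eIF2 kinases and factors, bZIP partners, amino acid and one-carbon enzymes, amino acid transporters, tRNA synthetases with the tRNA exportin, and further ATF4 targets. For a test, a gene had to reach an FPKM of 1 in 3 or more of the 6 libraries. Of the 58 that did, 44 were lower and 5 higher after irradiation with limma's adjusted p under 0.05, and their median was -0.569. Over all genes tested, 26.4% were called lower and 25.3% higher. This contrast is the one that chose the members, and the lists were drawn up with results of these data known, so the counts describe the pathway and are no independent evidence. All 13 of the tRNA group and all 9 transporters were lower, as were 7 of 9 enzymes, 5 of 6 bZIP partners and 6 of 7 further targets. GARS1, the glycyl-tRNA synthetase, went from 281.6 ± 3.79 to 129.5 ± 5.13 FPKM (SD, n = 3), a log2 difference of -1.11 on the log2(FPKM + 1) scale. The glutamine transporter SLC1A5, whose motif is printed above, went from 237.5 ± 8.45 to 111.1 ± 1.55 (-1.09). CEBPG, a dimer partner of ATF4, went from 68.09 ± 0.734 to 32.92 ± 1.56 (-1.03). These 3 genes each stood for the largest fall of their group. AARS1, the alanyl-tRNA synthetase whose stretch was printed, was at a mean of 163.4 FPKM before and 77.45 after (-1.07). MTHFD2, a mitochondrial enzyme of the folate cycle, went from 337.4 ± 1.33 to 169.6 ± 7.11 (-0.99), and STC2, a secreted glycoprotein, from 68.33 ± 2.24 to 30.94 ± 0.316 (-1.12). The targets were not uniform, since KLHL24 was higher at 3.85 ± 0.356 against 3.147 ± 0.277 FPKM.

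Of the 14 eIF2 kinases, subunits and regulators upstream in the response, 4 were higher and 4 lower, near the shares of all genes (25.3% and 26.4%), with a median of -0.0417. DNAJC3, an inhibitor of eIF2 kinases, went from 10.29 ± 0.371 to 12.85 ± 0.611 FPKM, and EIF2S2, the beta subunit of eIF2, from 233.3 ± 5.31 to 156.1 ± 2.63 (SD, n = 3). The kinase genes EIF2AK3 (PERK), EIF2AK4 (GCN2) and EIF2AK2 (PKR) were the other 3 higher ones, at means of 7.627, 28.71 and 23.86 FPKM after irradiation against 6.213, 24.02 and 20.83 before. Of the 12 chaperones and other genes of the ATF6 and XBP1 branch, which handles unfolded protein in the endoplasmic reticulum largely apart from ATF4, 6 were higher and 3 lower, with a median of 0.14. CRELD2 went from 14.64 ± 1.42 to 18.99 ± 1.67 FPKM, whereas XBP1, the factor of that branch, went from 93.73 ± 1.42 to 53.3 ± 0.91. Among 14 p53 targets, 13 were higher in the same libraries and 0 lower, with a median of 1.1 and the largest called rise in FDXR, a mitochondrial reductase (1.78). In BEAS-2B 0 of the 14 were called with all libraries, with a median of 0.75. Without irradiated replicate 2, 14 were called higher, where 1.92% of all genes were. That library was singled out by CDKN1A and MDM2, which are among the 14, so this count follows largely from that choice and is no test. The library's own median over the targets was 0.066 above the control mean, against 0.856 and 1.123 in replicates 1 and 3. In H446 1 rose (BTG2, 1.99 ± 0.125 to 2.49 ± 0.192 FPKM) and 1 fell (GDF15), with a median of -0.0109, and 3 rose and 2 fell with the GC trend removed.

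**Figure D2:**
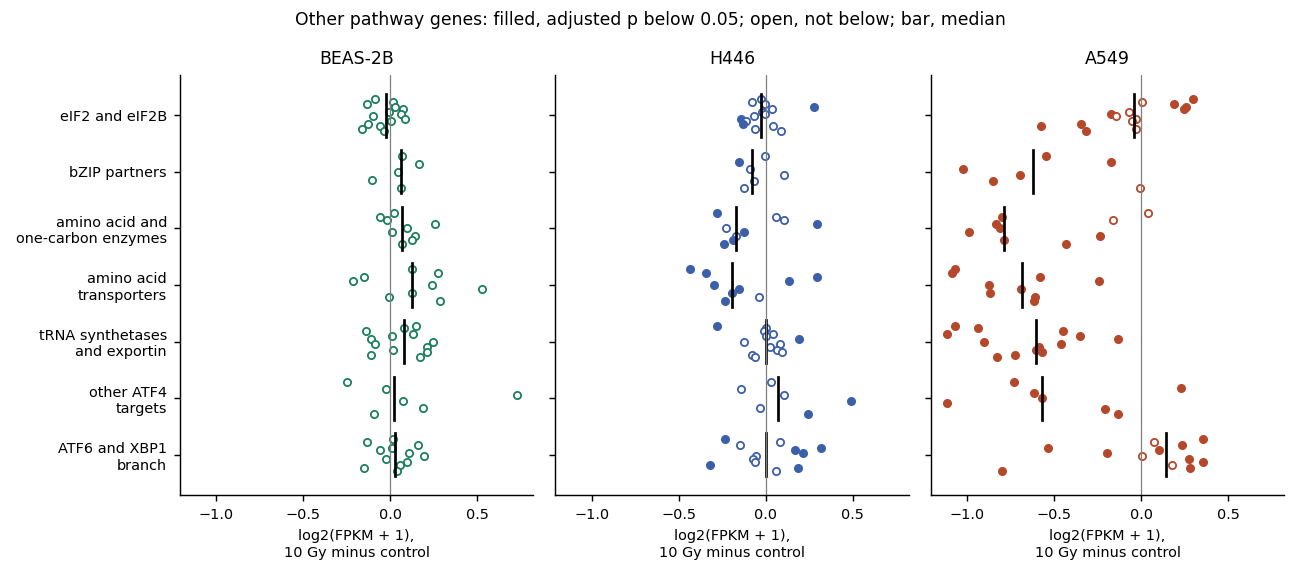
Log2 difference (10 Gy minus control, on log2(FPKM + 1)) of each further pathway gene, by group of genes and line, with filled points for an adjusted p under 0.05, open points otherwise and a bar at the median of each group. In A549 the points of transporters (9 of 9) and of the tRNA group (13 of 13) lie left of 0, while eIF2 genes and the ATF6 and XBP1 branch lie on both sides, and in BEAS-2B no point is filled.

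In BEAS-2B cells the members were higher or about level after irradiation, with the largest differences in ATF3 and DDIT3, and the size of both rested on which libraries were used. ATF3 was at 14.3, 16.45 and 17.25 FPKM in the controls and at 55.33, 15.04 and 68.19 after irradiation. Replicates 1 and 3 were more than 3-fold above the highest control and replicate 2 was inside the control range. The log2 difference was 1.23 ± 0.415 (2.89-fold higher) with all libraries, 1.88 ± 0.109 (3.86-fold) without replicate 2 and 0.83 without replicate 3. DDIT3 was at 16.86, 16.08 and 16.06 FPKM before and at 31.39, 12.96 and 43.86 after. Replicate 2 was again the exception, below all controls, and the difference was 0.65 ± 0.318 (1.8-fold higher) with it and 1.14 ± 0.121 (2.3-fold) without it. Leaving out irradiated replicate 3 instead gave 0.30 for DDIT3. The libraries in which ATF3 and DDIT3 were high were those in which CDKN1A and MDM2 were high, and the part of this in the result was not tested. ATF4 itself was at 170.07, 161.04 and 170.67 FPKM in the controls and at 165.23, 161.51 and 185.41 after irradiation, and the groups overlapped (0.03 ± 0.0785, and 0.07 without replicate 2).

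The feedback genes of BEAS-2B differed less. TRIB3 was at 13.8, 14.76 and 12.88 FPKM before and at 16.82, 18.33 and 15.88 after, without overlap and with replicate 2 the highest (0.28 ± 0.0851, 1.23-fold higher, 0.23 on the log2 scale without replicate 2 and 0.16 with the GC trend removed). CHAC1 was near the lower limit of the filter, at 1.19, 0.91 and 0.89 FPKM against 1.34, 1.32 and 2.19 (0.38 ± 0.134, and 0.46 without replicate 2). Over the libraries left out in turn, its difference ran from 0.23 to 0.46. On a scale with 0.1 in place of 1 added, its difference was 0.62, so its size depends on the scale. PPP1R15A was at 29.68, 35.5 and 29.11 FPKM before and at 41.31, 34.24 and 40.92 after, overlapping through control replicate 2 and irradiated replicate 2 (0.30 ± 0.101, and 0.38 without that irradiated library). DDIT4 was at 43.77, 45.59 and 45.89 FPKM against 43.06, 52.33 and 51.71, with overlap (0.11 ± 0.0865, and 0.06 without replicate 2).

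The enzymes of BEAS-2B were close to level. PSAT1 was at 24.69, 24.49 and 23.9 FPKM before and at 27.03, 28.51 and 28.38 after, without overlap (0.19 ± 0.0693, 0.18 without replicate 2 and 0.25 with the GC trend removed). ASNS was at 12.03, 9.54 and 11.96 against 12.62, 9.77 and 11.82 FPKM (0.03 ± 0.114, and 0.12 without replicate 2), and PHGDH at 57.63, 62.33 and 60.36 against 61.48, 67.0 and 58.03 (0.05 ± 0.0773, and -0.01 without replicate 2), both with overlap. In all, 3 of the 10 members (TRIB3, CHAC1, PSAT1) had every irradiated library above every control and 0 had every one below, where 7.48% and 8.87% of the 11734 genes tested did. Without irradiated replicate 2, 6 of 10 lay above and 0 below, against 13.8% and 13.2% of all genes. The median over the members was 0.237 with that library and 0.204 without it, and 0.00186 over all genes.

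No further pathway gene passed the threshold in BEAS-2B (0 of 56, limma), nor did any gene at all, with 0% called higher and 0% called lower of 11734 genes, although 1446 had an unadjusted p under 0.05. Without irradiated replicate 2, 1.92% of genes were called higher and 0.0771% lower, and 1 of 56 pathway genes was among them. This was SESN2, a sensor of leucine that restrains mTORC1 and is also a p53 target, at 2.947 ± 0.257 FPKM (SD, n = 3) before and 6.365 ± 0.0354 after (n = 2). Irradiated replicate 2 was singled out by p53 targets, so the call of SESN2 rests on that choice. The median over the 56 genes was 0.036, and 0.0391 without that library. With all 18 libraries in 1 fit, in which the spread is estimated over all lines, 6 of 58 were called higher and 2 lower, where 515 and 327 of all 13071 genes were.

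**Figure D3:**
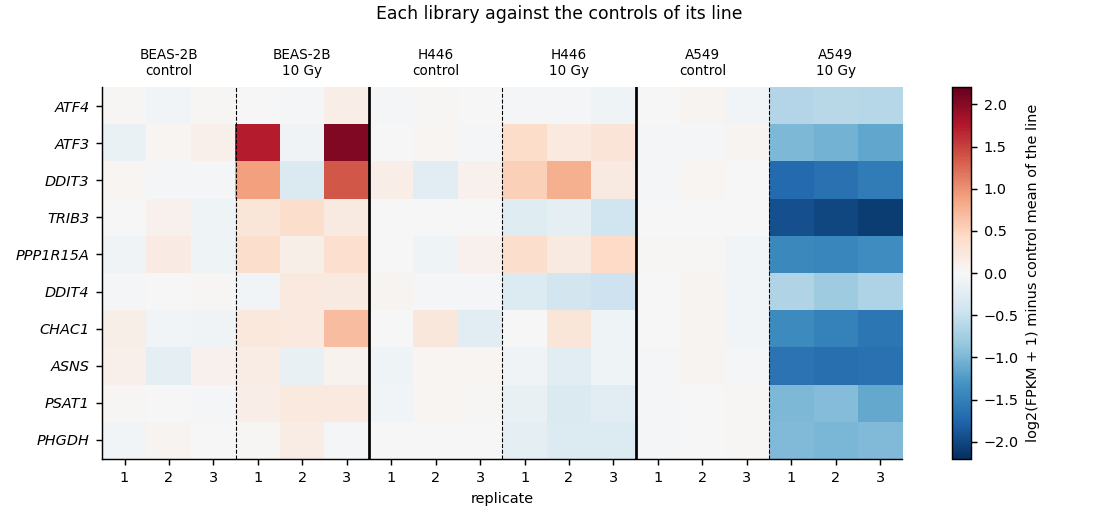
Each library's log2(FPKM + 1) minus the mean of the controls of its line, red for higher and blue for lower, with 10 genes as rows and 18 libraries as columns. The irradiated A549 columns are blue in every row, and the irradiated BEAS-2B columns 1 and 3 are red for ATF3 and DDIT3 while column 2 is not.

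H446 cells gave the contrast that played no part in choosing the members, so it was tested with limma across 11479 genes. The members split: ATF3, DDIT3 and PPP1R15A rose, TRIB3, DDIT4, PSAT1 and PHGDH fell, and ATF4, CHAC1 and ASNS did not pass the threshold. The 3 rises stand against 14.8% of all genes called higher, and the 4 falls against 23.6% called lower. Every change was smaller than 1.5-fold. The median over the members was -0.0971, against -0.0333 over all genes.

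ATF4 was at 262.59, 270.17 and 267.59 FPKM in the H446 controls and at 260.04, 262.35 and 251.15 after irradiation. The groups just missed each other, and the difference was -0.05 ± 0.0345 (adjusted p = 0.283, limma). Under quantile normalization it was -0.09 with an adjusted p of 0.0388 (limma), and with the GC trend removed 0.07 and not called. ATF3 was at 4.64, 4.78 and 4.48 FPKM before and at 6.49, 5.54 and 5.83 after, 1.28-fold higher (0.30 ± 0.0671, adjusted p = 0.0058, limma, and 0.31 with the GC trend removed). DDIT3 was at 7.68, 5.74 and 7.37 FPKM against 10.36, 12.55 and 8.03, a 1.49-fold rise with a wide spread (0.50 ± 0.135, adjusted p = 0.0143, limma, and 0.54 with the GC trend removed). Its call was lost without control replicate 2 (0.39, adjusted p = 0.0556) and without the filter on low values (adjusted p = 0.0665), and both factors lost theirs with all 18 libraries in 1 limma fit (adjusted p = 0.544 for ATF3 and 0.175 for DDIT3).

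PPP1R15A was at 10.11, 9.41 and 10.84 FPKM in the H446 controls and at 13.45, 11.79 and 14.01 after irradiation, all above the controls (0.34 ± 0.0701, 1.29-fold, adjusted p = 0.00395, limma, and 0.48 with the GC trend removed). TRIB3 moved the other way, from 17.55, 17.63 and 17.67 to 14.47, 15.25 and 12.81 FPKM (-0.30 ± 0.0592, 1.24-fold lower, adjusted p = 0.0032, limma). Removing the GC trend left -0.13 with an adjusted p of 0.0982 (limma), and TRIB3 was the only member to lose its call that way. DDIT4 went from 81.36, 75.8 and 76.25 to 62.71, 58.52 and 56.28 FPKM (-0.39 ± 0.0465, 1.31-fold lower, adjusted p = 0.000169, limma), and it remained called at -0.26 with the trend removed. CHAC1 was at 1.8, 2.36 and 1.37 FPKM before and at 1.81, 2.37 and 1.65 after, with overlap (0.06 ± 0.131, adjusted p = 0.755, limma), and its difference was 0.25 and not called with the GC trend removed.

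PSAT1 fell from 102.54, 110.57 and 109.73 to 95.6, 86.47 and 90.62 FPKM (-0.24 ± 0.0453, 1.18-fold lower, adjusted p = 0.0024, limma, and -0.28 with the GC trend removed). PHGDH fell from 130.42, 128.81 and 129.23 to 111.76, 105.41 and 105.52 FPKM (-0.27 ± 0.0354, 1.2-fold lower, adjusted p = 0.000327, limma, and -0.20 with the GC trend removed). The serine pair thus moved by like amounts here too. ASNS was at 18.58, 20.48 and 20.56 against 18.66, 16.54 and 18.45 FPKM, with overlap (-0.15 ± 0.0579, adjusted p = 0.0709, limma, and -0.14, not called, with the GC trend removed), and it passed the threshold without control replicate 1 (0.0411) or irradiated replicate 1 (0.0499). Counted by overlap, 3 members lay above all controls and 5 below, where 20.4% and 29.9% of all genes did. With the GC trend removed, 6 members were called, 3 higher and 3 lower, all genes were split into 1814 higher and 1706 lower in place of 1698 and 2709, and the median of the members was -0.033.

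**Figure D4:**
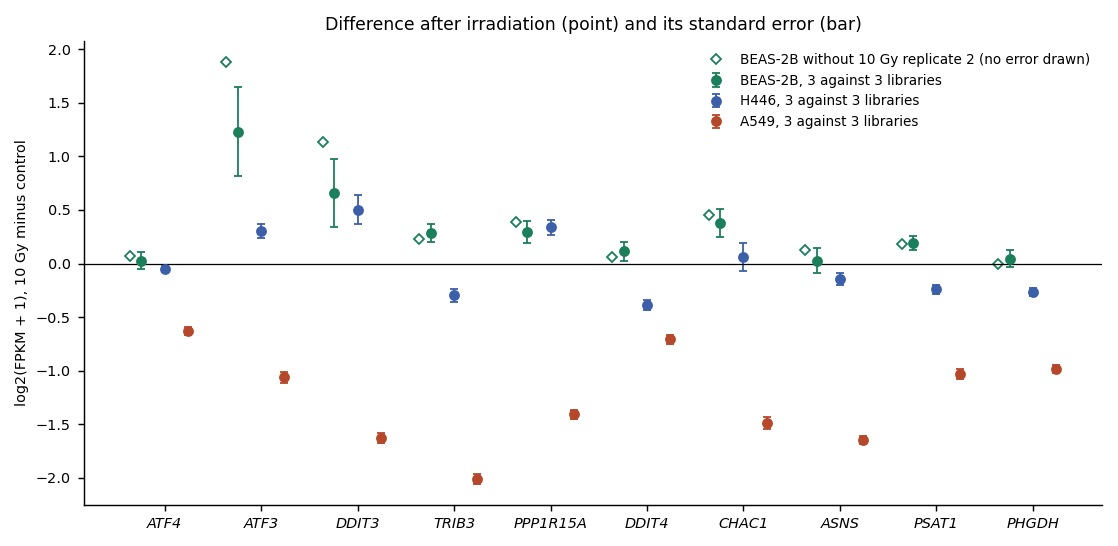
Difference in log2(FPKM + 1) between 10 Gy and control for each gene in the 3 lines, with bars for the standard error (limma), and open diamonds for BEAS-2B without irradiated replicate 2. A549 points lie between -2.01 and -0.63, H446 points between -0.39 and 0.50, and the widest bars are those of ATF3 (0.415) and DDIT3 (0.318) in BEAS-2B.

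Of 57 further pathway genes tested in H446, 7 rose and 14 fell (limma), with a median of -0.0334, near the shares of all genes called (14.8% higher and 23.6% lower). Removing the GC trend changed the split to 9 and 10, where 1814 and 1706 of all 11380 genes were called. With all 18 libraries in 1 fit, 6 of 58 were called higher and 7 lower, where 1154 genes were called higher and 2003 lower of all 13071. Of the 9 amino acid transporters, 2 rose and 6 fell, and with the trend removed 1 rose and 3 fell. SLC1A4, which carries alanine and serine, fell from 8.38 ± 0.165 to 5.947 ± 0.437 FPKM (SD, n = 3, adjusted p = 0.000458, limma), and the glutamine carrier SLC38A1 rose from 138.5 ± 0.976 to 170.3 ± 5.82 (adjusted p = 0.000178, limma). Of the 9 enzymes 1 rose and 4 fell (1 and 3 with the trend removed), namely GOT1, the cytosolic aspartate aminotransferase, from 23.24 ± 0.318 to 28.79 ± 1.54 FPKM, and, as the largest fall, ALDH18A1, which starts proline synthesis, from 24.49 ± 0.765 to 20.01 ± 1.2. Of the tRNA group 1 of 13 rose (LARS1, 42.45 ± 0.985 to 48.55 ± 0.488) and 1 fell (AARS1, 66.4 ± 0.728 to 54.69 ± 4.36), and 2 rose and 2 fell with the trend removed. STC2 rose from 21.54 ± 1.04 to 30.58 ± 1.48 FPKM (0.49, adjusted p = 6.31e-05, limma) and VLDLR, a lipoprotein receptor, from a mean of 7.193 to 8.7, the 2 further targets of 6 that passed, where 3 rose with the trend removed. The gene of the kinase PERK, EIF2AK3, rose from 4.627 ± 0.258 to 5.81 ± 0.221, and 2 of the 14 eIF2 genes fell, EIF2B4 the most (20.32 ± 0.622 to 18.3 ± 0.608). Of the bZIP partners 1 of 6 passed, CEBPB, which fell from 84.03 ± 2.3 to 75.53 ± 4.06, and with the GC trend removed its difference was 0.08 and not called. EIF2B4 also lost its call under that setting. In the ATF6 and XBP1 branch 4 of 12 rose and 2 fell (4 and 0 with the trend removed), with HERPUD1, which serves degradation of misfolded protein, at 34.15 ± 2.32 before and 42.72 ± 1.76 after, and SDF2L1 at 21.76 ± 0.86 before and 17.28 ± 1.59 after. The call of SDF2L1 was lost with the trend removed.

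The control libraries set the levels from which these differences started. The controls of A549 and BEAS-2B also enter the contrasts that chose the members, and genes picked for a lower level in irradiated A549 cells can be picked for a high level in their controls. The members' control levels are therefore a description with no test. The controls of no 2 lines overlapped for 9 of the 10 members (the exception was PHGDH), where this was so for 62% of the 12854 genes that reached an FPKM of 1 in 3 or more of the 9 controls. ATF4 was highest in A549 (342.6 ± 14 FPKM, SD, n = 3), then H446 (266.8 ± 3.85), then BEAS-2B (167.3 ± 5.4). TRIB3, DDIT4, CHAC1, ASNS and PSAT1 followed the same order. CHAC1 and ASNS showed the widest gaps between A549 and BEAS-2B, 27.2-fold (27.14 ± 1.15 against 0.9967 ± 0.168 FPKM) and 12.3-fold (137.5 ± 4.75 against 11.18 ± 1.42). TRIB3 was 6.57-fold higher in A549 than in BEAS-2B controls, DDIT4 6.38-fold and PSAT1 6.95-fold.

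ATF3, DDIT3 and PPP1R15A had another order, with A549 highest, BEAS-2B next and H446 lowest. H446 controls were below BEAS-2B controls by 3.45-fold in ATF3 (-1.59 ± 0.066 on the log2 scale), 2.36-fold in DDIT3 (-1.14 ± 0.0792) and 3.11-fold in PPP1R15A (-1.54 ± 0.0728). The same 3 genes were the ones that rose in H446 after irradiation. PHGDH was the exception to the rank of A549, with 129.5 ± 0.835 FPKM in H446, 62.92 ± 1.32 in A549 and 60.11 ± 2.36 in BEAS-2B. The libraries of the last 2 lines overlapped, with a difference of 0.07 ± 0.0417 that was 0.22 under quantile normalization. The median log2 difference over the members was 0.585 between H446 and BEAS-2B, 2.47 between A549 and BEAS-2B and 2.32 between A549 and H446.

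After irradiation the ratio of A549 to either other line was lower than in the controls for all 10 members. Since the A549 and BEAS-2B contrasts chose the members, this describes the choice. The share of all genes with a lower ratio was not counted. The ratio of A549 to BEAS-2B means went from 6.57 in the controls to 1.28 in irradiated cells for TRIB3, from 5.23 to 0.917 for DDIT3, from 2.99 to 0.898 for PPP1R15A, from 27.2 to 5.59 for CHAC1 and from 12.3 to 3.79 for ASNS. For ATF3, for which BEAS-2B was higher after irradiation, it went from 1.72 to 0.275, and for PHGDH from 1.05 to 0.505. Without BEAS-2B irradiated replicate 2, the ratio in irradiated cells was 0.206 for ATF3, 0.717 for DDIT3, 0.848 for PPP1R15A, 1.33 for TRIB3, 5.12 for CHAC1, 3.54 for ASNS and 0.526 for PHGDH. Against H446 the ratio went from 5.15 to 1.54 for TRIB3, from 1.28 to 0.859 for ATF4 and from 1.57 to 0.909 for PSAT1. In the controls, all A549 libraries exceeded all 12 libraries of the other lines for 8 of the 10 members, the exceptions being ATF3 and PHGDH, and for 24.7% of the 13092 genes at 1 FPKM or more in 3 or more of the 18 libraries. In irradiated A549 this held for 4 members, TRIB3, DDIT4, CHAC1 and ASNS, and for 23.3% of those genes. These counts rest on values that entered the choice of the members. TRIB3 did so by little, with a lowest irradiated A549 library of 20.5 FPKM against a highest of 18.33 in the other lines.

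**Figure D5:**
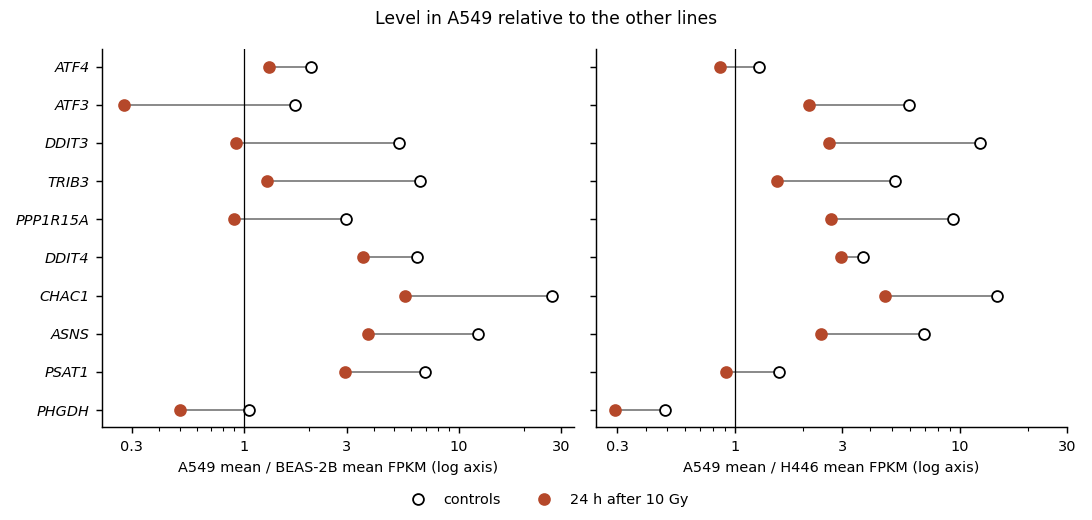
Ratio of the mean FPKM in A549 to that in BEAS-2B (left) and H446 (right) on a log axis, with open circles for controls and filled circles for irradiated cells, and a vertical line at equal levels. The ratios rest on values that entered the choice of the members. The filled circles lie left of the open ones for all 10 genes, and against BEAS-2B those of ATF3 (0.275), PHGDH (0.505), PPP1R15A (0.898) and DDIT3 (0.917) end left of the line, as do those of PHGDH (0.292), ATF4 (0.859) and PSAT1 (0.909) against H446.

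Genes whose pattern was most like those of TRIB3 and ATF3 were sought among 9375 genes averaging 5 FPKM or more, by Pearson's r over the 18 libraries after the mean of each line was subtracted. The libraries share their line mean and fall into the 6 groups of the study, so r is a description with no test. For TRIB3 the closest were CTPS1, a CTP synthase (0.985), the keratin KRT80 (0.981), the 14-3-3 protein gene YWHAH (0.981) and the members PSAT1 (0.981) and PHGDH (0.980). For ATF3 they were DNAJB2, a co-chaperone (0.966), GADD45A, a growth arrest gene (0.961), the ERK phosphatase DUSP5 (0.955), the growth factor AREG (0.946) and the receptor EPHA2 (0.945). Neither list held a gene of the other. Among the 45 pairs of members r ran from 0.379 (ATF3 with DDIT4) to 0.981 (TRIB3 with PSAT1), with a median of 0.871. Over the 12 BEAS-2B and H446 libraries alone it ran from -0.528 to 0.895, with a median of 0.231 and 14 of 45 pairs below 0. ATF3 and DDIT3 kept an r of 0.895 there, and TRIB3 and PSAT1 one of 0.830, while that of TRIB3 and ASNS was 0.031 in place of 0.953. Without BEAS-2B irradiated replicate 2, the 10 named genes had an r of 0.942 to 0.987 with TRIB3 or ATF3. The median over the pairs was then 0.893 in 17 libraries and 0.346 in the 11 without A549, where TRIB3 and ASNS had an r of 0.327.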

How the data were processed

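Poly(A) libraries of 3 lines (3 control and 3 irradiated each) were read by the authors as single-end reads of 50 bases. The submitters' processing notes name HISAT2 2.0.4, Bowtie2 2.2.5, RSEM 1.2.12 and hg38. The authors deposited 1 table of normalized values, taken here as FPKM. This unit was inferred from the values, whose totals differ between libraries, and is named neither in the labels nor in the header. Without counts the depth is unknown and no counting interval is given. No strand setting is stated. At most 2.97% of the values above 0 were equal between replicates.

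Of 18475 Entrez identifiers, 18181 were named through RefSeq. Values were transformed to log2(FPKM + 1). Each line was fitted alone, and the 9 controls together, for genes with FPKM of at least 1 in at least 3 libraries, with limma 3.58.1 (trend on the mean) in R 4.3.3. The members' differences in A549, in BEAS-2B and between control lines are given with no test. The threshold was a Benjamini-Hochberg adjusted p of 0.05 over all genes. The members, gene lists and tests were chosen with earlier results of these data known. Genes named are the members, the largest called rise and fall per list of stress response genes and line, the 5 genes most like TRIB3 and like ATF3, CDKN1A, MDM2 and line markers. AARS1, the EIF2AK genes called in A549, VLDLR and the p53 targets FDXR, BTG2 and GDF15 were added after their values were seen. GC content came from the longest GENCODE 29 transcript (17852 genes), and its trend was removed by loess with a span of 0.5. Promoter windows are those of RefSeq on GRCh38.p14. The fits were tested on simulated data. Alternatives were quantile normalization, equal totals, a pseudocount of 0.1, other filters, no trend, a replicate block, GC removal, 1 fit of all libraries and leaving out each library. INSM1 and NEUROD1 were not analysed here, and some marker values are not reported here. Tables were made with Python 3.11.15, pandas 2.3.3 and numpy 2.4.6, and figures with matplotlib 3.10.9.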

Additional observations from a re-analysis of the deposited data

Results flagged for a closer look

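For 6 members, every irradiated library lay above every control in one line and below every control in another, where 17.2% of the 13092 genes at 1 FPKM or more in 3 or more of the 18 libraries had such a pattern. The difference between lines was not tested in any of these cases, and the members were chosen on such values in BEAS-2B and A549. On the log2(FPKM + 1) scale, irradiated minus control, ATF3 was 0.302 in H446 and -1.061 in A549. DDIT3 was 0.502 in H446 and -1.628 in A549. PPP1R15A was 0.340 in H446 and -1.407 in A549. CHAC1 was 0.377 in BEAS-2B and -1.488 in A549. TRIB3 was 0.282 in BEAS-2B, while H446 gave -0.298 and A549 -2.009. PSAT1 was 0.192 in BEAS-2B, while H446 gave -0.241 and A549 -1.028. In H446, TRIB3 lost its call with the GC trend removed, and the H446 groups differed in that trend, whose part in the result was not tested.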

How the results depend on the processing

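No called value of a member changed sign under any alternative run. Values near 0 did: with the GC trend removed, ATF4 changed to -0.06 in BEAS-2B and 0.07 in H446 and PHGDH to -0.01 in BEAS-2B, and with 1 library left out, ATF4 (-0.03), ASNS (down to -0.07) and PHGDH (-0.01) changed sign in BEAS-2B and CHAC1 (down to -0.07) in H446. CEBPB in H446 changed from a called -0.15 to an uncalled 0.08 with the GC trend removed. The count of members called in H446 (7) stayed within 1.5 times under every alternative, as did the A549 count of further pathway genes (49). In BEAS-2B that count was 0, and it became 4 with the replicate block, under which 344 genes were called higher and 95 lower of all 11734, and 8 with all 18 libraries in 1 fit (515 and 327 of 13071). With each library left out in turn it ranged from 0 to 1, the 1 coming without irradiated replicate 2. In H446 it went from 21 to 13 with all 18 libraries in 1 fit, and the calls over all genes from 1698 and 2709 of 11479 to 1154 and 2003 of 13071. The cause of these changes was not tested.

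The median of the members moved from 0.237 to 0.192 in BEAS-2B with FPKM of at least 1 in every library, which left out CHAC1, and to 0.178 with the GC trend removed. In H446 it moved from -0.097 to -0.033 with the GC trend removed, and between -0.125 and -0.077 with each library left out, the former without control replicate 1. In A549 it moved from -1.234 to -1.201 under quantile normalization and to -1.271 with a pseudocount of 0.1.

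Same-numbered libraries did not all deviate together. The correlations were -0.125, 0.324 and 0.311 in BEAS-2B, 0.190, 0.010 and 0.082 in H446, -0.099 to 0.010 in A549 and -0.102 to 0.081 between the controls of different lines, so no line had every pair over 0.1 and no pairing was made. The replicate block changed no call of a member in H446. Of the members' single values in H446, 142 kept their side of the threshold under an alternative, 5 lost it and 3 gained it. Without counts, no limit from depth could be set.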

Other observations

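GDF15, a stress cytokine that is a target of both p53 and CHOP, and SESN2, a target of both p53 and ATF4, are given here by line. GDF15 was at a mean of 1.997 FPKM in the BEAS-2B controls and 21.59 after irradiation, or 30.89 ± 1.66 (SD, n = 2) without irradiated replicate 2, with an adjusted p of 0.25 (limma) with all libraries and 2.28e-08 without that one. Irradiated replicate 2 was singled out by its low CDKN1A and MDM2, which are p53 targets as well. The p-values without it, for GDF15 and for SESN2 below, rest on that choice and are no independent test. In H446 cells GDF15 fell from 53.08 ± 2.8 to 34.89 ± 0.87 FPKM (SD, n = 3), with an adjusted p of 6.13e-06 (limma), and its log2 difference of -0.59 was -0.40 with the GC trend removed. In A549 cells its mean was 77.15 before and 127.9 after. SESN2 was at a mean of 16.27 FPKM in the A549 controls and 10.65 after irradiation, whereas in BEAS-2B it was at 2.947 before and 5.623 after, with an adjusted p of 0.241 (limma), and of 0.000698 without irradiated replicate 2. In H446 its means were 3.763 and 4.12, with an adjusted p of 0.254 (limma). GDF15 thus stood higher and SESN2 lower in the same irradiated A549 libraries. The difference between lines was not tested.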
